A study of Mus musculus with 4 samples.

Results

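The nuclear genes of the mitochondrial respiratory chain and ATP synthase were described in mouse pancreatic cancer cells treated with halofuginone. Members were the genes whose name on the array begins with Nduf, Uqcr, Atp5, or Cox followed by a digit from 4 to 8, and the succinate dehydrogenase genes Sdha, Sdhb, Sdhc and Sdhd. This choice by name gave 92 of 36918 gene names. Of the 92 genes, 73 code for subunits used in most tissues, 36 of them in complex I, 4 in complex II, 8 in complex III, 10 in complex IV and 15 in ATP synthase (complex V). Another 8 are tissue-restricted isoforms or their relatives, 7 are Ndufaf assembly factors of complex I, and 1 is Cox7a2l, a factor that joins complexes into supercomplexes. Atp5s, Atp5sl and the pseudogene Atp5c1-ps also carry such names and were kept apart from the subunits.

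The 4 samples were halofuginone K6, halofuginone K5, control K6 and control K5. K6 and K5 are mouse cancer cells of pancreatic cancer from strain C57BL/6. Halofuginone, an inhibitor of prolyl-tRNA synthetase, was given at 100 nM for 24 h, and controls received DMSO. The labels do not say what sets K6 apart from K5, and both are called lines. Each line gave 1 array per condition, and nothing says how many cultures stood behind a sample, so p-values measure only the spread between these arrays. Between 47.2% and 54% of spots were well above background, with more on both halofuginone arrays than on both control arrays. All 8 epithelial markers (keratins, Epcam, Cdh1, Cldn4 and Muc1) were above background on all 4 arrays, while 5 of 6 acinar markers were above it on none. Cldn4 was close to the detection limit on both K5 arrays, and Cldn4 and Epcam were lower in K5 than in K6 under each condition.

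The respiratory chain passes electrons from NADH (complex I) and succinate (complex II) through ubiquinone and complex III to complex IV, which reduces oxygen to water. Complexes I, III and IV pump protons across the inner mitochondrial membrane, and ATP synthase uses the returning flow to make ATP. Most subunits are coded in the nucleus and imported, while a few core subunits of every complex but complex II are coded in mitochondrial DNA.

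Values below are log2 signals relative to the 75th percentile of each array, and a change is a difference of such values, halofuginone minus control. Halofuginone was compared with control over both lines with limma, with the line as a block and Benjamini-Hochberg adjustment over 19093 tested genes. Of the 92 members, 88 were well above background on at least 2 arrays and were tested. Cox8b and Cox8c were not above background on any array, and Cox7b2 and Ndufa4l2 were above it on the halofuginone K6 array alone. After halofuginone, 1 member rose past an adjusted p of 0.05, and 3.88% of all tested genes did so. Another 2 members fell past it, against 5.08% of all tested genes, so that 3 of 88 passed in either direction against 8.96%. These 3 members were Cox6a2, Cox7a1 and Ndufv3, and the other 85 did not pass. Cox6a2 entered the test only through the 2 halofuginone arrays, since its probe was not above background in either control, so it could not have been tested without being higher there. At an unadjusted p under 0.05 there were 21 members, 3 higher and 18 lower, or 21 of 88 against 34.1% of all tested genes. The calls depend on the fit: without the replicate block, which pairs the samples of a line, limma called 0 members and 0 genes in all, with 4492 genes at an unadjusted p under 0.05. RNA came from all cells of a sample, so fewer cells of a type and less RNA per cell cannot be told apart.

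Subunit transcripts as a group lay slightly lower after halofuginone. The median change of the 73 subunits was -0.35, and the median of all tested genes was 0.01. Within the lines the subunit medians were -0.32 in K6 and -0.38 in K5, against 0.04 and -0.03 for all tested genes. Of the 73 subunits, 53 were lower in both lines (72.6%), and 38.0% of all tested genes were. Another 11 subunits were higher in both lines, as were 38.7% of all tested genes, and 9 moved in opposite directions. The changes were small, with 41 of the 73 subunits within 0.5 of no change. Subunit signals were bright: 72 of 73 lay in the brightest quartile of tested genes, whose median change was 0.06 and of which 38.8% were lower in both lines. Members share a pathway and 4 arrays, so their number does not stand for independent samples.

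**Figure D1:**
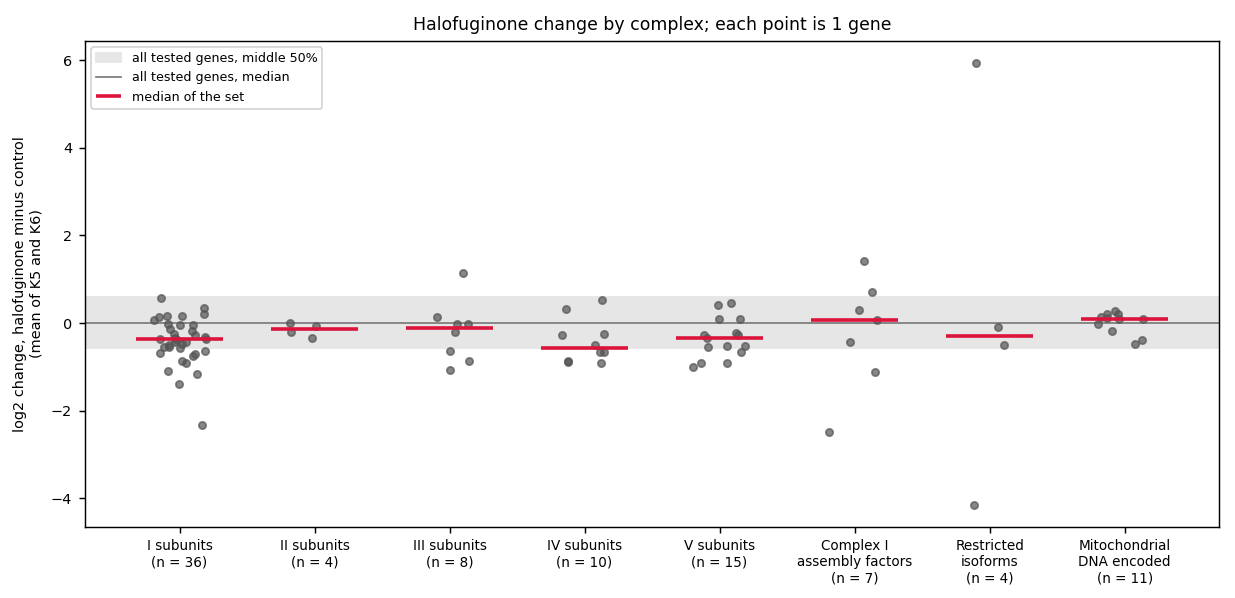
Change after halofuginone for each tested gene (vertical axis, log2, mean of K6 and K5) by complex or class (horizontal axis). Grey points are genes, red bars are set medians and the grey band holds the middle 50% of all tested genes. Medians of the 5 subunit sets run from -0.57 for complex IV to -0.11 for complex III. Cox7a1 (-4.14) lies far below the band. The point for Cox6a2, far above it, is drawn as read (5.94), with controls not above background, and the supported size is at least 16.1-fold.

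The medians differed among the complexes. They were -0.57 for the 10 subunits of complex IV, -0.37 for the 36 of complex I, -0.34 for the 15 of ATP synthase, -0.14 for the 4 of complex II and -0.11 for the 8 of complex III. The number lower in both lines was 8 of 10 for complex IV, 27 of 36 for complex I, 11 of 15 for ATP synthase, 3 of 4 for complex II and 4 of 8 for complex III. Complex IV subunits had medians of -0.37 in K6 and -0.59 in K5, complex III subunits -0.05 in K6 and -0.30 in K5, and complex II subunits -0.02 in K6 and -0.25 in K5. These 3 medians differ between the lines by more than 1.5 times. Cyc1, cytochrome c1 of complex III, falls outside the member names and is not among the 8. It was higher in both lines, with a change of 0.67 (0.58 in K6, 0.76 in K5, SE 0.26, adjusted p = 0.17). No set was tested against another.

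Complex I takes electrons from NADH. Its 7 nuclear catalytic core subunits, which hold the flavin and iron-sulfur clusters, had a median change of -0.71, and 6 of them were lower in both lines. The exception was Ndufs7, at 0.49 in K6 and -0.19 in K5. Ndufs3 had 3.73 in halofuginone K6 and 4.17 in halofuginone K5, against 4.88 in control K6 and 5.21 in control K5. Its change was -1.09 (SE 0.26, adjusted p = 0.076), and the 2 conditions did not overlap. Ndufs8 changed by -0.92 (SE 0.28, adjusted p = 0.11). Ndufv1, the subunit that binds the flavin, changed by -0.71 (adjusted p = 0.15).

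The 29 supernumerary subunits of complex I, which surround the core, had a median change of -0.36, with 21 lower in both lines. Ndufv3 was the one complex I subunit that passed the test. It read 2.87 in halofuginone K6 and 3.94 in halofuginone K5, against 5.35 in control K6 and 6.13 in control K5. Both halofuginone arrays were below both control arrays, a fall of 2.33 on the log2 scale (SE 0.27, adjusted p = 0.039), or 5.03-fold. This value comes from the probe at chr17:31668209-31668268 (mm9). A much dimmer second probe for Ndufv3, at chr17:31663758-31663817, was above background on all 4 arrays and read 0.35 higher in K6 and 0.23 higher in K5. With the mean over all probes of a gene in place of the brightest probe, Ndufv3 was not among the members called. The deposited files do not say which part of the gene each probe reads.

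Ndufb9 was the next lowest complex I subunit, at -1.39 (SE 0.31, adjusted p = 0.071). Its signals were 3.46 in halofuginone K6 and 4.45 in halofuginone K5, against 5.20 in control K6 and 5.49 in control K5. The groups did not overlap, and the change was -1.74 in K6 and -1.04 in K5. Ndufa3 changed by -1.16 (adjusted p = 0.071), and a second bright probe read lower in both lines (-1.12 in K6, -1.19 in K5), while a much dimmer one read 0.17. At the other end stood Ndufs4, a subunit whose loss causes Leigh syndrome in people, at 0.58 (adjusted p = 0.26), and Ndufa10 at 0.35 (adjusted p = 0.39). Among complex I subunits, K6 change minus K5 change was largest in size for Ndufb9 (-0.70) and Ndufs7 (0.68). Across all members, 29 had more than 1 probe above background, 7 of them had probes of opposite sign, and in 4 (Ndufa13, Ndufa3, Ndufab1 and Ndufv3) the probes lay over 1 log2 unit apart.

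**Figure D2:**
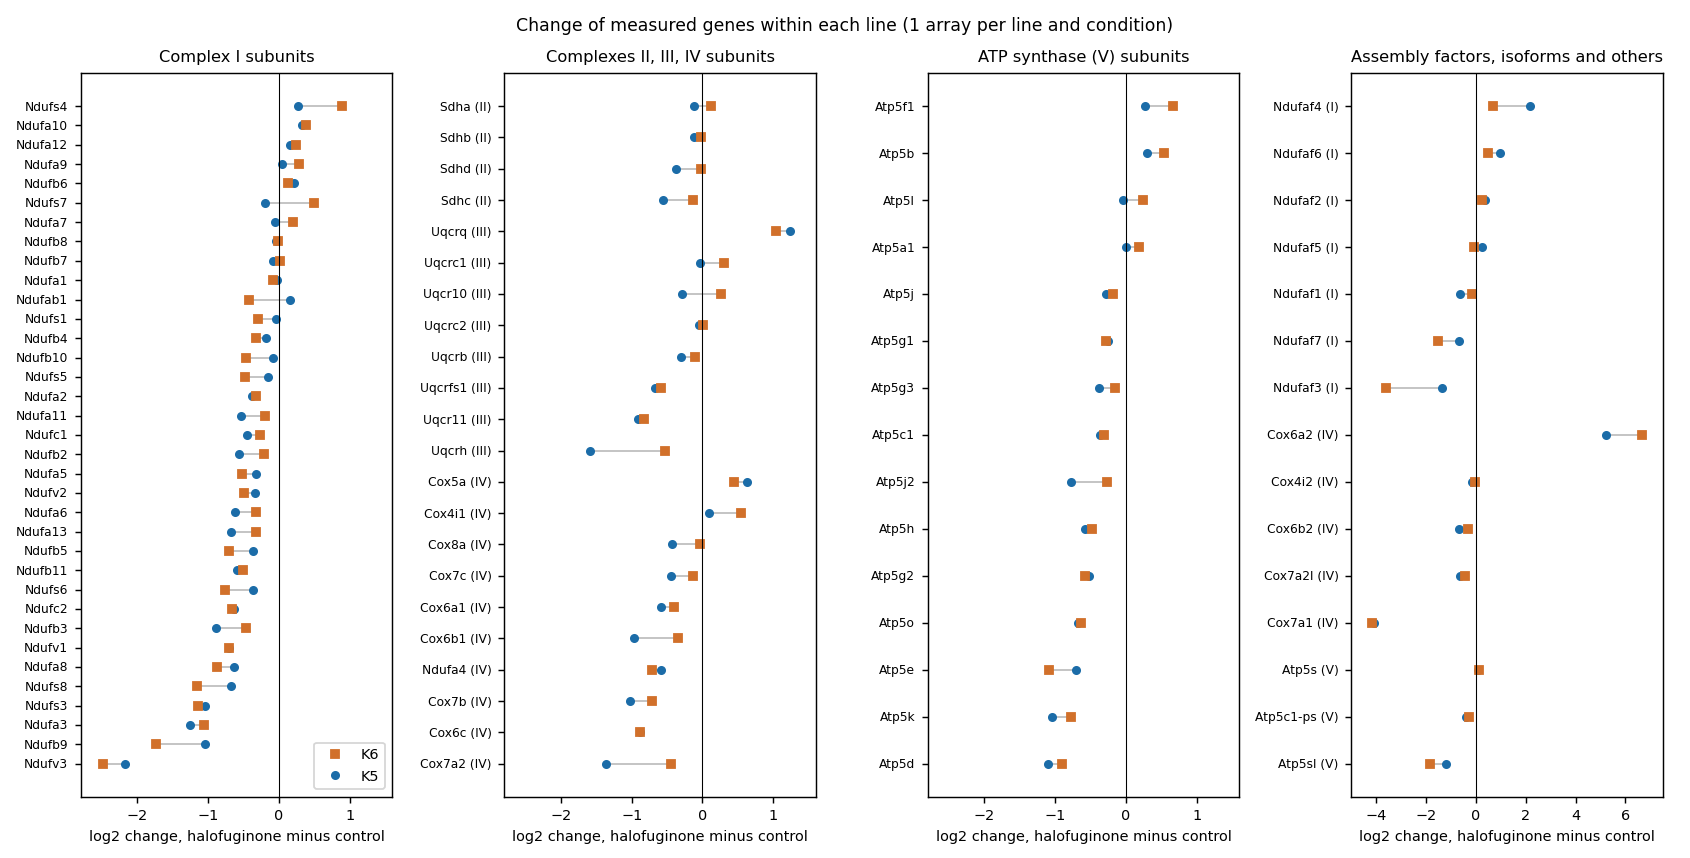
Change after halofuginone (horizontal axes, log2, halofuginone minus control) of the tested genes in K6 (orange squares) and K5 (blue circles), with 1 array per line and condition and 1 complex I subunit left out. A grey line joins the lines' values for a gene, and the square covers the circle where they coincide, as for Cox6c. Ndufv3 is lowest among subunits in both lines, at -2.48 in K6 and -2.18 in K5. The right panel has a wider axis.

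Complex II, which is also the succinate dehydrogenase of the citric acid cycle, had the narrowest range of changes, from -0.35 to 0.00. Sdha, the flavoprotein, had 4.20 in halofuginone K6 and 4.38 in halofuginone K5, against 4.08 in control K6 and 4.50 in control K5. The 2 conditions overlapped and the change was 0.00 (SE 0.26). Sdhb, the iron-sulfur subunit, changed by -0.07. The membrane anchors Sdhc and Sdhd changed by -0.35 and -0.20. With this SE, changes of about the size of the subunit median could not be told from none.

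Complex III moves electrons from ubiquinol to cytochrome c. It held the subunit with the highest change of all, Uqcrq, and the one with the lowest outside complex I, Uqcrh. Uqcrq, a small subunit of the complex, had 7.41 in halofuginone K6 and 7.47 in halofuginone K5, against 6.37 in control K6 and 6.23 in control K5. The groups did not overlap, and the difference of 1.14 (SE 0.26), or 2.21-fold, had an adjusted p of 0.072. Uqcrq was the one subunit at least 2-fold higher in both lines. Uqcrh, the hinge protein, had 5.83 in halofuginone K6 and 4.61 in halofuginone K5, against 6.37 in control K6 and 6.20 in control K5. Both halofuginone arrays were below both control arrays, but the change was -0.53 in K6 and -1.59 in K5, with a mean of -1.06 (SE 0.37, adjusted p = 0.14). Uqcr11 changed by -0.87 (adjusted p = 0.11). Uqcrfs1, the Rieske iron-sulfur protein, changed by -0.63 (adjusted p = 0.18). The core proteins Uqcrc1 and Uqcrc2 changed by 0.14 and -0.02.

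Complex IV is cytochrome c oxidase. Of its nuclear subunits used in most tissues, 10 were among the members, and Cox5b was not. Of these 10, Cox4i1 and Cox5a were higher in both lines and the other 8 were lower in both. Cox5a had 6.86 in halofuginone K6 and 6.70 in halofuginone K5, against 6.42 in control K6 and 6.08 in control K5, a change of 0.53 (SE 0.26, adjusted p = 0.23). Cox4i1 changed by 0.32 (adjusted p = 0.47). Cox7a2 read 4.73 in halofuginone K6 and 4.12 in halofuginone K5, against 5.18 in control K6 and 5.49 in control K5. Both halofuginone arrays were below both control arrays, with changes of -0.44 in K6 and -1.37 in K5 and a mean of -0.91 (SE 0.35, adjusted p = 0.16). Cox6c changed by -0.88 in each line (SE 0.26, adjusted p = 0.10), and Cox7b by -0.87 (adjusted p = 0.11). Ndufa4, which carries a complex I name but is a subunit of complex IV, changed by -0.65 (adjusted p = 0.17).

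Several complex IV subunits have a second gene whose use is restricted to certain tissues, and the largest changes among all members were in 2 such genes that heart and skeletal muscle use. Cox6a2, the muscle form of Cox6a1, had 0.17 in halofuginone K6 and -0.57 in halofuginone K5, against -6.48 in control K6 and -5.80 in control K5. It was well above background on both halofuginone arrays and on neither control array. The control values are therefore limits, and Cox6a2 was at least 16.1-fold higher after halofuginone, at least 21.4-fold in K6 and at least 12.1-fold in K5. The fit on values as read gave 5.94 (SE 0.44, adjusted p = 0.036), which does not test that bound, and with normexp background correction the value as read was 3.35. Its probe lies at chr7:135349160-135349219 (mm9). Cox6a1, the form used in most tissues, had 7.53 in halofuginone K6 and 7.51 in halofuginone K5, against 7.93 in control K6 and 8.10 in control K5, a change of -0.49 (SE 0.26, adjusted p = 0.26).

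Cox7a1, the muscle form of Cox7a2, moved the other way. It had -2.52 in halofuginone K6 and -1.97 in halofuginone K5, against 1.68 in control K6 and 2.11 in control K5, and all 4 values were above background. The fall was 4.14 on the log2 scale (SE 0.26, adjusted p = 0.036), or 17.6-fold, and was of similar size in each line, with changes of -4.19 in K6 and -4.08 in K5. Its probe spans chr7:30970337-30970948 (mm9). Cox6a2 and Cox7a1 thus changed in opposite directions on the same 4 arrays. The other tested restricted forms did not pass: Cox4i2, the form found in lung, changed by -0.09 (adjusted p = 0.83), and Cox6b2, the testis form, by -0.51 (adjusted p = 0.27). Cox7b2 was not tested. In K6 it was at least 1.68-fold higher after halofuginone than in control, from 1 array each.

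**Figure D3:**
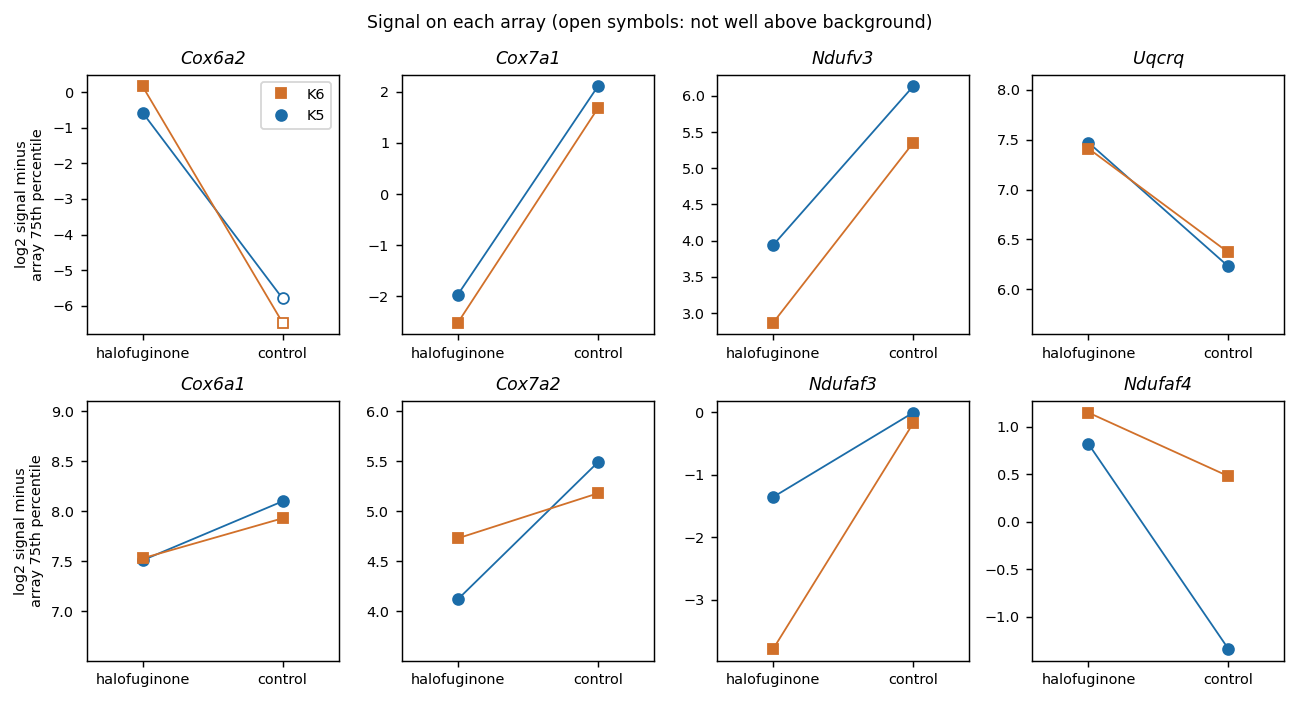
Signal of 8 members on each array (vertical axes, log2 relative to the array's 75th percentile), with halofuginone left of control, K6 as orange squares and K5 as blue circles. Open symbols, at the controls of Cox6a2, are not well above background. Axes differ in range. Cox6a2 is higher and Cox7a1 and Ndufv3 are lower on both halofuginone arrays than on both control arrays.

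Muscle markers were read beside these 2 genes. Of 10 striated muscle markers, 4 were above background in halofuginone K6 and 5 in halofuginone K5, against 3 in control K6 and 3 in control K5. Ckm, Myh1, Myh7, Mb and Actn2 were above it on no array. The list's summed signal, in multiples of the array's 75th percentile, was 17.9 in halofuginone K6 and 2.71 in halofuginone K5, against 6.54 in control K6 and 1.32 in control K5. One marker passed the test, Tnnt2, with a change of 1.63. It was the brightest of the list on every array, with log2 signals of 4.06 in halofuginone K6 and 2.56 in control K6. Most of the summed signal in K6 was thus from this 1 gene. Of the others above background on all 4 arrays, Ryr1 changed by 0.58 and Tnnt3 by -0.79. Myh2, like Cox6a2, was above background on both halofuginone arrays and neither control array, and its value as read, 3.22, did not pass. The part of these markers in the values of Cox6a2 and Cox7a1 was not tested. Immune markers summed to 9.8 in halofuginone K6 and 13.4 in halofuginone K5, against 27.3 in control K6 and 30.2 in control K5, with Cd14 and Cd68 past the threshold and 5 of 6 markers above background on all 4 arrays. Endothelial markers above background numbered 3 of 4 in halofuginone K6 and 1 of 4 in halofuginone K5, against 1 in control K6 and 0 in control K5, with sums of at most 0.449. Fibroblast markers numbered 1 of 6 in halofuginone K6 and 3 of 6 in halofuginone K5, against 2 in control K6 and 2 in control K5, with sums of at most 2.58. Past the threshold, Muc1 (epithelial), Cela1 (acinar) and Fbln1 (fibroblast) fell and Kdr (endothelial) rose. The part of these lists in the results was not tested either.

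Promoters are shown for Cox7a1 and Ndufv3, which passed the test, for Cox7a2, counterpart of Cox7a1, and for Cox6a1, which carries Nrf1 and ETS motifs. They are from RefSeq (GRCm38.p6) and run from 250 bases before the start to 50 after it, 5′ to 3′ on the gene's strand: chr7:30183921-30184220 (plus) for Cox7a1, chr9:79759804-79760103 (minus) for Cox7a2, chr5:115348909-115349208 (minus) for Cox6a1 and chr17:31519865-31520164 (plus) for Ndufv3. Capitals mark matches to the motif of the factor Nrf1 (GCGCANGCG) or of ETS factors such as Gabpa (CCGGAAG), searched on both strands. Cox7a1, Cox7a2 and Ndufv3 hold none of these letters in this window.
Cox7a1: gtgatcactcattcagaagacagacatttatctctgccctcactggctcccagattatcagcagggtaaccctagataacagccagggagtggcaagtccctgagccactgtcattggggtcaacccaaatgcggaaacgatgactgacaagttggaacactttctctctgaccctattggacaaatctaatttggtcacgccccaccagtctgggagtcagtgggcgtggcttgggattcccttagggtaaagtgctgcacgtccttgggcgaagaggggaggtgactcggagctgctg
Cox7a2: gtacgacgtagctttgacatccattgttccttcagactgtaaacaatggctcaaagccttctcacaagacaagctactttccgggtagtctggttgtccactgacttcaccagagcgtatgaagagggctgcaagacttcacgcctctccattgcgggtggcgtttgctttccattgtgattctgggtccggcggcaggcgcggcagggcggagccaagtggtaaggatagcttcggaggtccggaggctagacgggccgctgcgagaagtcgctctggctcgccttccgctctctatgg
Cox6a1: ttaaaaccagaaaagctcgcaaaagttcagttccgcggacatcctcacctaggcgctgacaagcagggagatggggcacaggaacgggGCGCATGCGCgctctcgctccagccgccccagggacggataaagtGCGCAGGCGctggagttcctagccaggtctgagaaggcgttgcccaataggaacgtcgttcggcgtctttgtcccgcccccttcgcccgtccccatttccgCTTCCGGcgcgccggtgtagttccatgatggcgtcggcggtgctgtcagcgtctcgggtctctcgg
Ndufv3: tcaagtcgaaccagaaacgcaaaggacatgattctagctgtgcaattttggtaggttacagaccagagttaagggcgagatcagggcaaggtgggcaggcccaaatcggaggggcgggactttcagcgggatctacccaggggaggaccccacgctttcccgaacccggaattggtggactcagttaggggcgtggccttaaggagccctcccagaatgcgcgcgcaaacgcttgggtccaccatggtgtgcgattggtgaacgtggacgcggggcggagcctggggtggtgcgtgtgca

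Of the 92 members, 75 matched a promoter in that table and 17 did not, Cox6a2 being one of the 17. The 62 subunit genes among the 75 have 67 promoters. The Nrf1 motif stood in 21 of these, or 31.3%, against 6.25% of 32851 promoters of all genes. The ETS motif stood in 16, or 23.9%, against 8.86%. The motif of ATF4 with C/EBP (TGATGNAAN) stood in 0 of 67, against 3.95% of all promoters, and an E-box (CAGCTG) in 7.46%, against 16.3%. Each motif was counted on both strands and apart from the others, whether or not they overlapped, and 0 of the 4 matched restricted isoform promoters held the Nrf1 or ETS letters. The share of subunit promoters with the Nrf1 motif differed by complex. It stood in 9 of 34 for complex I, 2 of 3 for complex II and 2 of 5 for complex III. For ATP synthase it stood in 7 of 17, and for complex IV in 1 of 8, that of Cox6a1. Subunit promoters were rich in CpG, with a median of 19 CpG per promoter against 7 in all promoters, and the Cox7a1 promoter shown has 7 while that of Cox6a1 has 32. The Nrf1 and ETS motifs themselves hold CpG, and the part of base composition in their shares was not tested. These are matches of letters and say nothing of binding in these cells.

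ATP synthase makes ATP in its F1 head, driven by the turning c ring and held by a peripheral stalk. No subunit passed the test. The 5 F1 subunits had a median change of -0.34 and spread both ways. Atp5d, the delta subunit of the central stalk, had 3.09 in halofuginone K6 and 2.96 in halofuginone K5, against 4.0 in control K6 and 4.06 in control K5. The groups did not overlap, and the change was -1.0 (SE 0.26, adjusted p = 0.087). Atp5e, the epsilon subunit, changed by -0.90 (adjusted p = 0.11). The catalytic beta subunit Atp5b read 7.47 in halofuginone K6 and 7.28 in halofuginone K5, against 6.93 in control K6 and 6.98 in control K5, a change of 0.42 (SE 0.26, adjusted p = 0.33). Atp5a1, the alpha subunit, changed by 0.09. The 3 genes Atp5g1, Atp5g2 and Atp5g3 code for the same mature c subunit, and they changed by -0.27, -0.55 and -0.27, each lower in both lines. In the peripheral stalk Atp5f1 changed by 0.47 and Atp5o by -0.66 (adjusted p = 0.30 and 0.16). Atp5k, the e subunit of the membrane part, changed by -0.92 (adjusted p = 0.10). Atp5sl was named for likeness to a coupling factor, now has the symbol Dmac2 and is not counted among the ATP synthase subunits. It changed by -1.53 (SE 0.30, adjusted p = 0.059), with -1.86 in K6 and -1.21 in K5.

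Assembly factors such as the Ndufaf proteins build the complexes but do not stay in them. The 7 Ndufaf factors of complex I had a median change of 0.07, with 3 lower and 3 higher in both lines, and none passed the test. Ndufaf3 had -3.79 in halofuginone K6 and -1.36 in halofuginone K5, against -0.18 in control K6 and -0.01 in control K5. Both halofuginone arrays were below both control arrays, and the change was -3.61 in K6 and -1.35 in K5, with a mean of -2.48 (SE 0.62, adjusted p = 0.083). Ndufaf4 had 1.15 in halofuginone K6 and 0.82 in halofuginone K5, against 0.48 in control K6 and -1.34 in control K5. Both halofuginone arrays were above both control arrays, with changes of 0.67 in K6 and 2.15 in K5 and a mean of 1.41 (SE 0.45, adjusted p = 0.12). Ndufaf7, a methyltransferase, changed by -1.11 (adjusted p = 0.11), and Ndufaf6 by 0.72 (adjusted p = 0.16). Ndufaf1, Ndufaf2 and Ndufaf5 changed by -0.42, 0.30 and 0.07. Cox7a2l, set apart above as a supercomplex factor, changed by -0.54 (adjusted p = 0.23).

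Lists of related genes were read in the same fit, in which 3.88% of all tested genes rose and 5.08% fell. All calls named from these lists were lost without the replicate block, with no filter on dim probes and with the percentile over probes above background on all 4 arrays. Of 38 tested assembly factors with other names, 0 rose and 1 fell, Pet100, a factor of complex IV, with a change of -2.05 (SE 0.29, adjusted p = 0.044) and a list median of -0.08. Among 22 electron carriers and other respiratory enzymes, 0 rose and 3 fell. Etfdh, which feeds electrons from fatty acid oxidation into ubiquinone, had 1.27 in halofuginone K6 and 1.57 in halofuginone K5, against 3.11 in control K6 and 3.28 in control K5 (change -1.77, SE 0.26, adjusted p = 0.044). Atpif1, the inhibitor that stops ATP synthase from running backwards, had 4.92 in halofuginone K6 and 5.11 in halofuginone K5, against 6.65 in control K6 and 6.55 in control K5 (change -1.59, SE 0.27, adjusted p = 0.049). The call of Atpif1 was also lost with quantile normalization and the authors' table. With the mean over all probes, the calls of Atpif1 and Etfdh, and of Aox1 and Bnip3 below, were lost. Aox1, the third that fell (change -1.66, adjusted p = 0.048), is a cytosolic aldehyde oxidase in mouse and not an enzyme of the chain. Cycs, cytochrome c, changed by 1.41 in the other direction (SE 0.26, adjusted p = 0.055).

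Among 19 tested regulators of mitochondrial biogenesis, none passed the test, 6 were higher and 1 lower at an unadjusted p under 0.05, and the median was 0.38. These 7 of 19 stand against 34.1% of all tested genes. Pprc1, a coactivator, changed by 1.47 (adjusted p = 0.055), Gabpb1, an ETS factor's partner, by 1.37 (adjusted p = 0.061), and Nrf1 by 1.03 (adjusted p = 0.094). Of 7 genes of the switch from respiration to glycolysis that follows hypoxia, 0 rose and 3 fell. Egln3, a prolyl hydroxylase that senses oxygen, changed by -3.73, with the halofuginone K6 array not above background, Pdk1, the kinase that shuts off pyruvate dehydrogenase, by -2.0, and Bnip3, a mitophagy receptor, by -2.96 (adjusted p = 0.036, 0.042 and 0.047). The other 4 did not pass. Lonp1 changed by 1.44 and Hif1a by 0.52, each higher in both lines (adjusted p = 0.085 and 0.27), Egln1 by -0.15 and Higd1a by -0.39.

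Mitochondrial DNA codes for further core subunits, and 11 of these genes were measured on the array. None passed the test, and 0 were at an unadjusted p under 0.05. Their mean changes ran from -0.47 for ND6 to 0.28 for ND5, and the lines differed. In 8 of the 11 (ND1, ND2, ND4, ND4L, ND5, CYTB, COX1 and ATP8) signal after halofuginone was lower in K6, by changes of -0.62 to -0.31, and higher in K5, by 0.26 to 0.89. ND2, a complex I subunit, shows the form: it had 6.27 in halofuginone K6 and 5.79 in halofuginone K5, against 6.81 in control K6 and 4.99 in control K5. CYTB, cytochrome b of complex III, had 6.71 in halofuginone K6 and 6.62 in halofuginone K5, against 7.20 in control K6 and 5.91 in control K5. The control K5 array was the lowest of the 4 in these 2 genes and the control K6 array the highest. K6 minus K5 in the 8 genes was -0.12 to 0.48 under halofuginone and 0.76 to 1.81 under control. COX2 read from 8.12 to 8.16 on all 4 arrays, and ND3 and ND6 were lower in both lines. Of 15896 genes above background on all 4 arrays, 5.99% changed in opposite directions in the lines by over 0.255 each. The difference between the lines has 1 array per cell and was not tested, and these genes are cut from shared polycistronic transcripts and so are not independent.

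**Figure D4:**
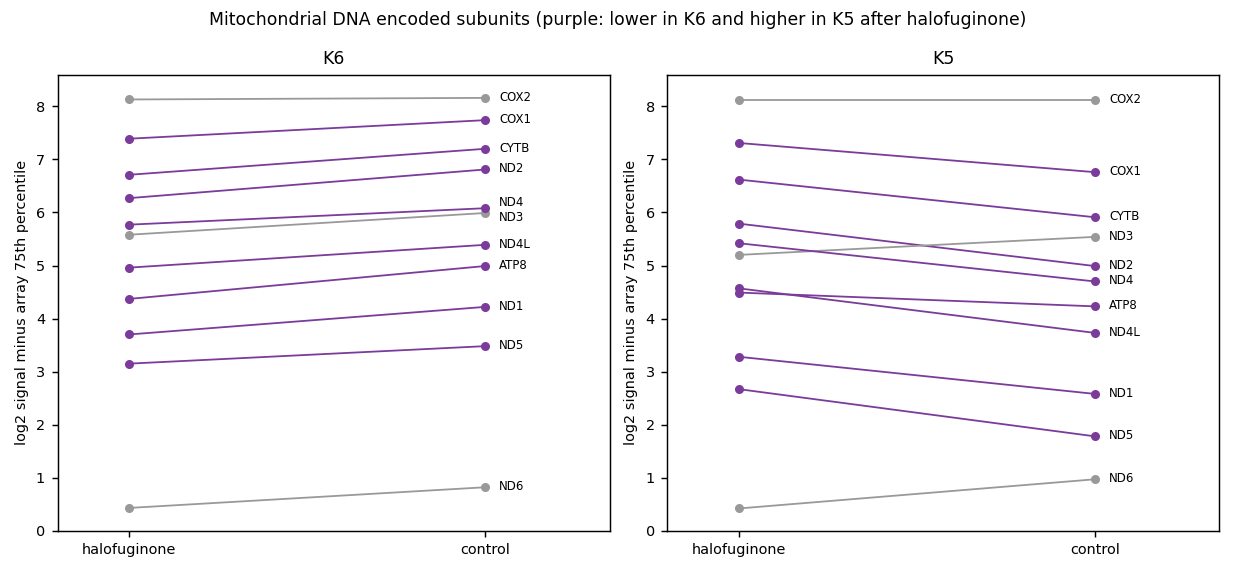
Signal of the 11 measured subunits coded in mitochondrial DNA (vertical axis, log2 relative to the array's 75th percentile) in halofuginone and control, K6 in the left panel and K5 in the right. Purple lines mark the 8 genes that were lower in K6 and higher in K5 after halofuginone, and grey lines the other 3. The purple genes' change is -0.62 to -0.31 in K6 and 0.26 to 0.89 in K5.

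Between the lines, over both conditions, limma called 0 members at an adjusted p of 0.05, against 0.0576% of all tested genes higher in K6 and 0.115% lower. Only Ndufb5 and Ndufv3 were at an unadjusted p under 0.05, 2 of 88 members against 15.5% of all tested genes. Ndufb5 had 3.54 in halofuginone K6, against 4.61 in halofuginone K5, and 4.24 in control K6, against 4.98 in control K5. K6 was lower under each treatment, and the difference was -0.91 (SE 0.27, adjusted p = 0.27). For Ndufv3 the difference was -0.93 (adjusted p = 0.26). Differences ran from -1.30 for Ndufaf3 to 1.07 for Ndufaf4, with a median of -0.14, against -0.03 for all tested genes. This shift depends on the scaling: the subunit median was -0.15, but -0.02 with quantile normalization and with the authors' table, where all tested genes had -0.03. Of the 88 members, 44 were lower in K6 under both treatments, against 34.5% of all tested genes, and 22 were higher under both, against 30.9%. Ndufaf4 differed by 0.33 under halofuginone and 1.82 under control, and Ndufaf3 by -2.44 under halofuginone and -0.17 under control, and whether these differences change with treatment was not tested. Ppargc1a, the coactivator known for driving mitochondrial biogenesis, was higher in K6 by 3.10 (SE 0.30, adjusted p = 0.059), with 1.90 in halofuginone K6 against -1.50 in halofuginone K5, and 1.49 in control K6 against -1.31 in control K5. Its relative Ppargc1b went the other way, at -1.30 (SE 0.31, adjusted p = 0.21), with -1.66 under halofuginone and -0.94 under control. Of the 19 tested regulators of mitochondrial biogenesis, 7 were higher in K6 under both treatments and 6 lower, and none passed the test.

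**Figure D5:**
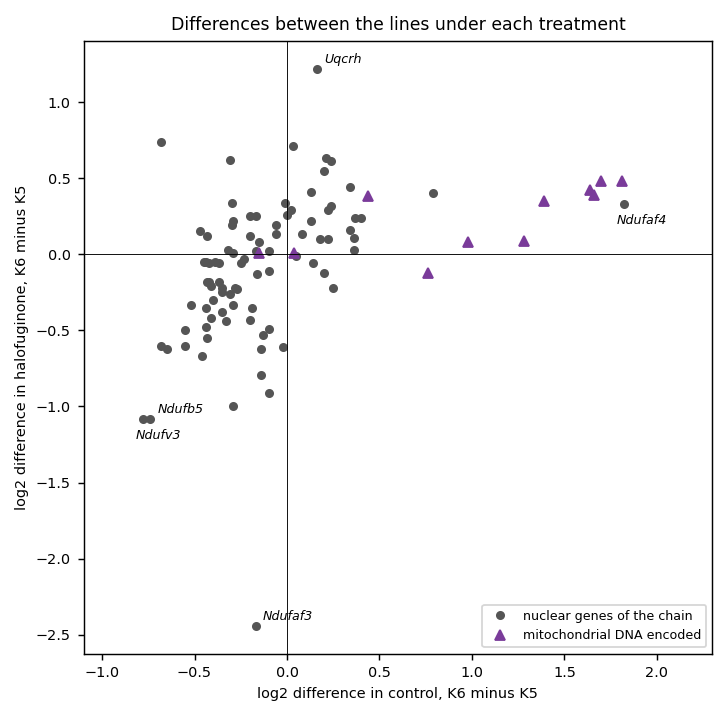
Difference between the lines (log2, K6 minus K5) in halofuginone (vertical axis) and in control (horizontal axis), with 1 array per line and condition. Circles are the 88 tested nuclear members and triangles the 11 measured genes of mitochondrial DNA. Members over 1 in size on either axis are named. Ndufb5 and Ndufv3 are lower in K6 under both conditions, Ndufaf3 is lower mainly in halofuginone, and 8 triangles lie at 0.76 to 1.81 in control and -0.12 to 0.48 in halofuginone.

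Counted within a line at 2-fold, which has no test, 2 members were higher and 10 lower after halofuginone in K6, against 16.4% of all tested genes in each direction. In K5, 3 were higher (14.1% of all tested genes) and 12 lower (14.9%). In both lines together 2 members were at least 2-fold higher, Cox6a2 and Uqcrq, against 8.59% of all tested genes. The 7 at least 2-fold lower in both were Cox7a1, Ndufv3, Ndufaf3, Ndufb9, Ndufa3, Ndufs3 and Atp5sl, against 9.62% of all tested genes.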

How the data were processed

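Total RNA of the 4 samples was hybridised, as Cy3-labelled cRNA, to 1-colour Agilent arrays per the labels' protocols. The authors deposited scanner files of spot intensity, extracted with Agilent Feature Extraction 10.7.1.1 per the file headers and 9.5.1.1 per the submitters' processing notes. The deposited processed signal is background-subtracted and not normalized between arrays. All arrays lay on 1 slide, so no batch could be tested, and 0 spots were saturated. The authors' deposited value table, also intensity, served as an alternative; no label or header says how it was made.

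Control and outlier spots were left out (301 probes went with them), spots of a probe were averaged, and log2 signal minus the array's 75th percentile was taken. Each gene name was read from its brightest probe and tested where that probe was above background on 2 or more arrays, 19093 of 36918. limma 3.58.1 in R 4.3.3 fitted line and treatment together, with 1 residual and 2.97 prior degrees of freedom, so an SE rests mostly on the spread pooled over genes. Code was tested on simulated data. A permutation test of 2 against 2 samples cannot go below p = 0.333, and none was used. Sample titles carry 5 or 6 for the line, which pairs a treated with a control sample, and across tested genes K6 minus K5 correlated at r = 0.498 between the conditions. The number of arrays limits precision.

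Where a group was not above background, a fold is a bound: the bright group's mean against, per array, the higher of the probe's own signal and the lowest signal above background. Members, lists and markers were chosen with earlier results of these data known. Named genes were those past the threshold, the 2 highest and 2 lowest subunits per complex after halofuginone, the member of each complex whose change differed most between the lines, the restricted isoforms and the Ndufaf genes. Other subunits and related genes that did not pass were named after their values were seen. Alternatives changed the scaling, background correction, filter, probe rule, variance trend and replicate block, or left out a line. One complex I subunit and 1 immune marker, counted in the totals, are not reported here by name.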

Additional observations from a re-analysis of the deposited data

Results flagged for a closer look

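In each result below, the change after halofuginone had one sign in K6 and the other in K5. With 1 array per line and condition, the difference between the lines, given as K6 change minus K5 change, was not tested. Among members, Uqcr10, a small subunit of complex III, changed by 0.26 in K6 and -0.29 in K5, a difference of 0.55. A dimmer second probe for Uqcr10, above background on all 4 arrays, read 0.03 in K6 and -0.30 in K5, so the rise in K6 rests on 1 probe.

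Of the genes coded in mitochondrial DNA, 8 were lower in K6 and higher in K5. The difference was -1.22 for ND1, -1.33 for ND2, -1.04 for ND4, -1.27 for ND4L, -1.22 for ND5, -1.20 for CYTB, -0.90 for COX1 and -0.88 for ATP8. The same number went opposite ways or more (8 or 9) under every scaling tried.

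Of assembly factors outside the member names, the difference was -1.29 for Sdhaf1 (-0.55 in K6, 0.74 in K5), -1.01 for Taco1, a translation activator of COX1 (-0.29 and 0.72), -0.94 for Tmem186 (-0.50 and 0.44) and -0.65 for Uqcc2 (-0.36 and 0.29). It was -0.76 for Polg2, the accessory subunit of the mitochondrial DNA polymerase (-0.33 in K6, 0.44 in K5), and 1.27 for Egln1, a prolyl hydroxylase that senses oxygen (0.48 in K6, -0.79 in K5).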

How the results depend on the processing

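With 2 arrays per condition and 1 residual degree of freedom, calls of members after halofuginone, 1 higher and 2 lower, varied with the settings. They were 0 and 0 without the replicate block, with no filter on dim probes, and with the 75th percentile over probes above background on all 4 arrays, where limma put 16, 29 and 27 members at an unadjusted p under 0.05. They were 3 and 18 with normexp, 2 and 10 with the filter on all 4 arrays (which drops Cox6a2), and 2 and 17 with an intensity trend. With the mean over all probes, 1 rose and 1 fell, and median centring gave 1 and 3. Between the lines 0 members were called under each alternative run, including the fit with no treatment term.

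The subunit median (-0.35) was -0.41 with quantile normalization and with the authors' table and -0.48 with the percentile over probes above background, which also moved the median of all tested genes to -0.12. With no filter on dim probes the median over all genes was -0.34, against -0.35 for the subunits. Leaving out 1 line gave -0.38 to -0.32. For complex I it was -0.45 with quantile normalization and the authors' table, -0.40 with median centring and the mean over probes, -0.50 with the percentile over probes above background and -0.35 with normexp, and for ATP synthase -0.47 with that percentile. Leaving out 1 line gave -0.30 to -0.05 for complex III and -0.59 to -0.37 for complex IV, and -0.25 to -0.02 for complex II. Over the alternatives run on it, the count of subunits lower in both lines stayed between 50 and 56. No called result changed direction. Of changes not called, Ndufaf5 (0.07) read -0.05 with the percentile over probes above background, -0.34 with the mean over probes and -0.09 without K5, and Uqcrc1 (0.14) read -0.03 without K6. For single genes, 397 values were counted as unchanged, 30 gained a call and 39 lost it, and the cause was not tested. The 397 include values with 1 line left out, which have no call. By the rule used, those could count as changed only where a called gene turned sign, so they say nothing of how stable a call is. Turns of sign in genes not called, such as Ndufaf5 without K5, were counted as unchanged.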
